A study of Sus scrofa with 30 samples.

Results

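miR-183, miR-96 and miR-182 are 3 microRNAs (miRNAs) whose genes lie next to each other on pig chromosome 18, where the RefSeq gene table for assembly Sscrofa11.1 lists them between the protein-coding genes UBE2H and NRF1. Their reads were followed here in the endometrium of pregnant and cyclic gilts. The members are the annotated sequences whose name holds mir-182, mir-183 or mir-96, which were 20 of 873. They comprise 11 sequences of miR-182, 6 of miR-183 and 3 of miR-96, all from the 5′ arm of their precursors, and each was counted by exact match.

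The 3 genes are transcribed together as 1 primary transcript in the vertebrates studied, and the cluster is best known from sensory cells of the eye and ear, with further expression in epithelia and in many carcinomas. A mature miRNA guides an Argonaute protein to messenger RNAs, mostly by pairing of its bases 2 to 8, the seed, with the target. An isomiR is a sequence of the same miRNA that begins or ends at another base, and a shifted first base gives another seed whereas a shifted last base does not.

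The study sequenced endometrial small RNA of 30 gilts (Hampshire x Duroc, 7 to 8 months old, from 1 herd), each as its own library. Pregnant animals (P), inseminated at the third estrus, were sampled on days (D) 12, 16 and 20 in groups of 5 (PD12), 5 (PD16) and 6 (PD20), and cyclic animals (C) on the same days in groups of 4 (CD12), 5 (CD16) and 5 (CD20). The uterus of PD12 and PD16 animals was flushed of conceptuses, whereas PD20 endometrium was taken at implantation sites once embryo and trophoblast had been removed. The paper names no such site for the other groups. In comparisons with PD20 the sampling site therefore cannot be told apart from state or day. The design allows the days to be compared within pregnancy and within the estrous cycle, and the states to be compared within a day. In whole endometrium, fewer cells of a type and less RNA per cell cannot be told apart.

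The sequences that carry the results are shown 5′ to 3′ as DNA letters, with the seed in capitals. They are the annotated mature form of miR-182 and of miR-183, the most read form of miR-183 and of miR-96, the forms of miR-182 that end earlier or later, and a form of miR-183 that begins 1 base later.
miR-182 24 nt: tTTGGCAAtggtagaactcacact
miR-182 20 nt: tTTGGCAAtggtagaactca
miR-182 22 nt: tTTGGCAAtggtagaactcaca
miR-182 26 nt: tTTGGCAAtggtagaactcacactgg
miR-183 22 nt: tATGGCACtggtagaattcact
miR-183 23 nt: tATGGCACtggtagaattcactg
miR-183 24 nt: tATGGCACtggtagaattcactgt
miR-183 21 nt, starting 1 base later: aTGGCACTggtagaattcact
miR-96 22 nt: tTTGGCACtagcacatttttgc
miR-96 23 nt: tTTGGCACtagcacatttttgct

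The seeds of the 3 miRNAs are alike and not the same. Counting from 1 at the 5′ end, the seed of miR-96 differs from that of miR-182 by A8C, and that of miR-183 differs from it by T2A and A8C, so that miR-183 and miR-96 differ only at A2T within the seed. Compared base by base from the first, seed included, the mature sequences of miR-182 and miR-183 share 18 of 23 bases. With the most read form of miR-96, 22 nt, that of miR-182 shares 12 of 22 and that of miR-183 shares 13 of 22. The 3 sequences of miR-183 that begin 1 base later carry the seed TGGCACT in place of ATGGCAC. All 11 sequences of miR-182 begin at the same base and differ only at the 3′ end, where they are 18 to 27 nt long. One of them is 24 nt long and ends with C (T24C), a sequence that the authors matched to the miR-182 of the Chinese hamster.

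A library held between 2029729 and 6402731 reads, of which 1574834 to 5241838 fell on the annotated sequences. Between 3956 and 41615 reads of a library belonged to the cluster, which was between 0.147% and 1.41% of the annotated reads (median 0.586%). Over the 30 libraries the cluster had 490537 reads. Nearly all of them were miR-182 (455871 reads, 92.9%), with 28916 reads of miR-183 (5.89%) and 5750 of miR-96 (1.17%), and the forms of miR-183 with the shifted seed held 9020 of these reads (1.84% of the cluster).

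Levels are given as normalized reads, which are CPM of the annotated sequences after TMM scaling. Ligation in small RNA libraries differs between sequences, so that an order of miRNAs by level is an order of read numbers only. The 24 nt miR-182 ranked 36 of 873 by its mean of 2883 normalized reads and the 22 nt form ranked 58. The most read form of miR-183, 22 nt, ranked 162 (mean 180), the 22 nt form of miR-96 ranked 309 (mean 40.6), and the 27 nt form of miR-182 ranked 716.

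Each miRNA had a leading form in most libraries. The 24 nt form of miR-182 held 49.0% of its reads, the 22 nt form 21.2%, the 23 nt form 8.92% and the T24C form 8.89%, and the 24 nt form led in 29 libraries. For miR-183 the 22 nt form, which is 1 base shorter than the annotated mature sequence, led in all 30 libraries and held 48.0% of the reads against 14.4% for the annotated 23 nt form. miR-96 was led by its 22 nt form in 23 libraries, by the 23 nt form in 6 and by the 21 nt form in 1. Of the 20 sequences, 17 reached 10 reads in the required number of animals in all 6 groups, which is the authors' filter (at least 4 animals, or 3 in CD12). The 18 nt form of miR-182 reached it only in PD20, the 21 nt form of miR-96 only in CD16, and the 27 nt form of miR-182 in 4 groups. The higher values of the 18 nt form in PD20 were therefore set in part by the filter.

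A pair of libraries stood apart in the last base of the reads, PD20 replicate 3 and CD16 replicate 3. For each 100 reads of the 24 nt miR-182 the T24C form had 0.192 reads in the former and 0.317 in the latter, against 11.3 to 28.3 in the other 28 libraries (median 18.5). This was not particular to miR-182, since over 667 pairs of other sequences that differ by C at the last base the value was 0.614 and 0.340 in these libraries and 8.20 to 29.3 in the others. The same libraries had the highest (1.41%) and the lowest (0.147%) share of cluster reads. The main results on PD20 and CD16 are given with and without them, and whether the way they were made has a part in the results was not tested.

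miR-182 was the most abundant member in every group, and the groups overlapped widely. Its summed level was 5297 ± 2498 normalized reads in PD12 (SD, n = 5), 7150 ± 2838 in PD16 (n = 5) and 7178 ± 4144 in PD20 (n = 6; 5716 ± 2332 without replicate 3). In cyclic animals it was 6211 ± 1322 in CD12 (n = 4), 5542 ± 2988 in CD16 (n = 5; 6485 ± 2444 without replicate 3) and 3897 ± 1241 in CD20 (n = 5). The means had the order CD20, PD12, CD16, CD12, PD16 and PD20 from low to high, and neighbours in it differed by less than the larger of their SDs.

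miR-183 had its highest mean in PD16, at 578 ± 232 normalized reads, followed by CD16 at 459 ± 358 (557 ± 328 without replicate 3), PD20 at 391 ± 121 (353 ± 85.2 without replicate 3), PD12 at 375 ± 214, CD12 at 228 ± 74.8 and CD20 at 203 ± 133. Its values in CD16 alone, from 66.5 to 1028, spanned nearly the whole range over all libraries, whose lowest value was 54.6 in CD20. Every PD16 animal (at least 339) lay above every CD12 animal (at most 331) and every CD20 animal (at most 332), groups that differ from PD16 in both state and day and were not tested against it. miR-96 had its highest mean in CD20 and its spread was close to its mean, at 123 ± 101 in CD20, 75.5 ± 71.5 in PD12, 73.8 ± 45.9 in CD16 (84.5 ± 45.1 without replicate 3), 62.8 ± 61.8 in PD16, 60.4 ± 71.0 in PD20 (61.4 ± 79.3 without replicate 3) and 51.6 ± 47.3 in CD12. In each of the pregnant groups 1 animal carried the high miR-96 value, which was 197 in PD12, 171 in PD16 and 203 in PD20 against at most 78.3 in the others.

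**Figure D1:**
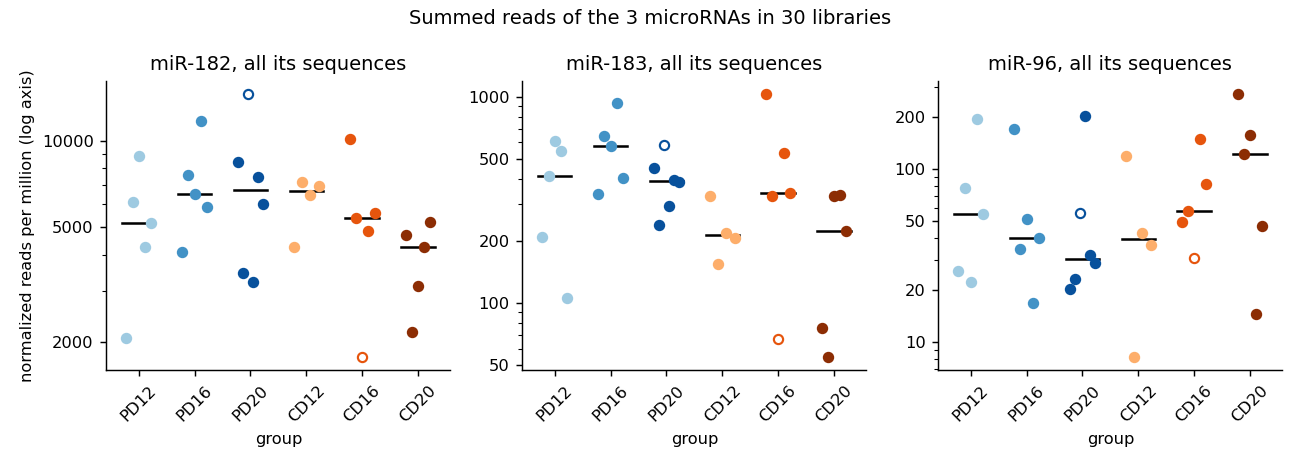
Summed normalized reads (CPM of the annotated sequences, log axis) of miR-182, miR-183 and miR-96 by group, with 1 point per library, a black line at the group median and open symbols for PD20 replicate 3 and CD16 replicate 3. PD16 lies wholly above CD12 and CD20 for miR-183, all other pairs of groups overlap in each panel, and the highest miR-182 value, 14488, is PD20 replicate 3.

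No cluster sequence was called in any of the 9 comparisons between groups by the main test used here. The paper, with an earlier edgeR and its own tests, reports significantly changed levels of some miR-182 isomiRs between pregnant and cyclic animals. It also lists miR-96 among its differentially expressed miRNAs. A call required a Benjamini-Hochberg adjusted p under 0.05 over all 873 sequences and an absolute log2FC over 1 in edgeR's quasi-likelihood test, and the share of all 873 sequences called was itself small. For D16 or D20 against D12 the adjusted p is that of the joint test of both days, whereas the log2FC and its SE are those of the pair named. It was 0.229% for PD16 vs PD12, 0.802% for PD20 vs PD12, 0.573% for PD20 vs PD16, 0.115% for CD16 vs CD12, 0.458% for CD20 vs CD12, 0.458% for CD20 vs CD16, and 1.49% for PD20 vs CD20. For P vs C on D12 and on D16 it was 0.0%. At an unadjusted p under 0.05 in the single contrast of each pair of groups, edgeR gave 8 of 20 members for PD20 vs CD20, where 28.5% of all sequences passed, 4 for CD16 vs CD12 (17.1%), 3 each for PD20 vs PD12 (20.6%), CD20 vs CD12 (14.3%) and CD20 vs CD16 (21.2%), 2 each for PD16 vs PD12 (10.2%) and PD20 vs PD16 (14.2%), and 0 for PD12 vs CD12 (6.07%) and for PD16 vs CD16 (10.9%). Without PD20 replicate 3 and CD16 replicate 3 the same count was 6 for PD20 vs CD20 (23.4%), 2 for PD20 vs PD12 (17.8%) and 9 for CD20 vs CD16 (23.5%), and the last count was thus higher without CD16 replicate 3 than with it. Both counts for PD20 vs PD12, and the 8 for PD20 vs CD20, include the 18 nt miR-182. That form passed the authors' filter through PD20 alone, so that these counts were set in part by the filter. Groups without any overlap in normalized reads were found for 1 member in PD16 vs PD12, as for 1.83% of all sequences, and for 1 member in CD20 vs CD12 (4.47%). No member was without overlap in the other comparisons, where the share of all sequences was 3.32% for PD20 vs PD12, 1.72% for PD20 vs PD16, 5.5% for CD16 vs CD12, 4.93% for CD20 vs CD16, 2.18% for P vs C on D12, 1.72% on D16 and 4.81% on D20. Less strict tests called some members. For PD20 vs PD12 the only member called was the 18 nt miR-182, both by the likelihood ratio test and by DESeq2. This form is also among the 4 that DESeq2 called for PD20 vs CD20. Since it passed the authors' filter through PD20 alone, these calls of it carry no weight here. The likelihood ratio test of edgeR called 2 members for PD16 vs PD12 (2.75% of all sequences; the 18 nt miR-182 is 1 of them, by a joint test that includes PD20, the group through which it passed the filter), 1 for PD20 vs PD12 (5.27%), 1 for CD16 vs CD12 (5.27%), 1 for CD20 vs CD16 (6.41%) and 4 for PD20 vs CD20 (14.2%). It called 0 for CD20 vs CD12 (5.73%), PD20 vs PD16 (2.41%) and P vs C on the earlier days (0.115% and 0.573%). DESeq2 called 1 for PD16 vs PD12 (2.89%), 1 for PD20 vs PD12 (5.32%), 1 each for CD16 vs CD12 (5.88%), CD20 vs CD12 (6.45%) and CD20 vs CD16 (8.29%), 4 for PD20 vs CD20 (15.2%) and 0 for PD20 vs PD16 (1.74%), PD12 vs CD12 (0.0%) and PD16 vs CD16 (0.805%).

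On D20 the forms of miR-182 and miR-183 had mostly higher values in pregnancy, without a call, in the comparison in which all sequences also had their largest share of low unadjusted p-values (28.5%). The median log2FC of the 20 members was 0.80, and that of all 873 sequences was -0.03. Positive values were found in 9 of 11 sequences of miR-182, in 6 of 6 of miR-183 and in 1 of 3 of miR-96, against 48.6% of all 873 sequences. Forms of 1 miRNA were read in the same libraries and are not separate observations, so that these counts are a description. Of the 8 members with an unadjusted p under 0.05, 7 were higher in PD20 and 1, the 23 nt miR-96, was lower. These counts include the 18 nt miR-182, which passed the authors' filter through PD20 alone. Without PD20 replicate 3 the median was 0.69, against -0.02 for all sequences, and the 6 members with an unadjusted p under 0.05 were the 19, 20 and 22 nt miR-182 and the 22 and 24 nt miR-183, which were higher in PD20, and the 23 nt miR-96, which was lower.

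The 20 nt miR-182 had the smallest adjusted p of the members. Its normalized reads were between 101 and 1386 in PD20 (median 214), and 101, 71.9, 82.4, 109 and 76.7 in CD20. The highest value was PD20 replicate 3, and the other 5 PD20 animals had at most 234. The log2FC was 2.14 ± 0.61 (SE; adjusted p = 0.0603, edgeR), and without PD20 replicate 3 it was 1.06 ± 0.34 (adjusted p = 0.117, edgeR), so that this library alone set more than 1 unit of the difference.

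The 22 nt miR-182, second in abundance, had 770 to 5896 normalized reads in PD20 (median 1753) and 896, 409, 537, 902 and 1013 in CD20. PD20 replicate 3 was again the highest and the next was 2153, and the groups overlapped at their lower end. Its log2FC was 1.59 ± 0.50 (adjusted p = 0.0665, edgeR) with all libraries and 1.00 ± 0.40 (adjusted p = 0.154, edgeR) without that library. The 24 nt mature form had a log2FC of 0.72 ± 0.41 (adjusted p = 0.241, edgeR), which fell to 0.46 ± 0.40 without it. Of the forms of miR-182 that passed the filter in every group, those of 19, 20 and 22 nt had the largest log2FC, and the 26 nt form had one of -0.06.

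For miR-183 the values depended less on that library than those of the 20 and 22 nt miR-182. The 24 nt form had 10.7 to 34.7 normalized reads in PD20 (median 25.01) and 3.41, 5.29, 12.6, 18.4 and 15.2 in CD20. The lowest PD20 animal lay within the range of CD20, and 5 of 6 lay above it. Its log2FC was 1.23 ± 0.46 (adjusted p = 0.101, edgeR), and 1.22 ± 0.49 without replicate 3 (adjusted p = 0.154, edgeR). The most read 22 nt form had a log2FC of 1.21 ± 0.47 (adjusted p = 0.109, edgeR), and 1.08 without that library.

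miR-96 had the opposite sign. Its 23 nt form had 1.36 to 41.9 normalized reads in PD20 (median 8.46) and 168, 65.6, 49.3, 2.78 and 19.05 in CD20. CD20 replicates 1, 2 and 3 were above all PD20 animals, and replicate 4 was below all but 1 of them. The log2FC was -2.26 ± 0.80 (adjusted p = 0.0884, edgeR). PD20 replicate 4 was the 1 high pregnant animal, and without it the log2FC was -3.19 and the sequence was called. It was also called without CD20 replicate 4, the lowest cyclic animal. Each of these fits leaves out the animal that goes most against the difference, and their shares of all sequences called are given below. Without CD20 replicate 1, the highest cyclic animal, the log2FC was -1.42.

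As sums, miR-182 had a log2FC of 0.95 ± 0.43 (adjusted p = 0.160, edgeR), miR-183 of 1.01 ± 0.46 (adjusted p = 0.166) and miR-96 of -1.004 ± 0.68 (adjusted p = 0.333) in PD20 vs CD20. Without PD20 replicate 3 the first was 0.61 and the second 0.86. None of the sums was called in any comparison. For the sums every comparison was a single contrast, also D16 and D20 against D12, so that these shares come from another test than those of the sequences. In the table of 856 features with sums the share called was 0.0% for PD16 vs PD12, 3.62% for PD20 vs PD12, 0.584% for PD20 vs PD16, 0.0% for CD16 vs CD12, 0.35% for CD20 vs CD12, 0.467% for CD20 vs CD16, 0.0% for P vs C on D12 and D16 and 2.57% on D20.

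**Figure D2:**
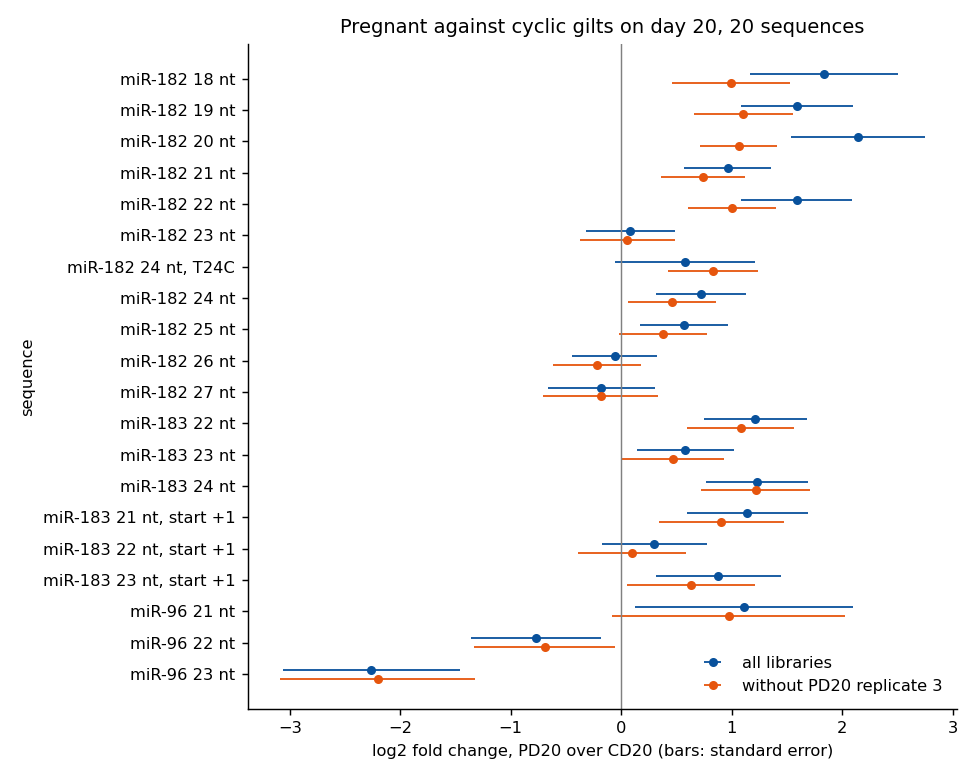
log2FC of PD20 vs CD20 for the 20 cluster sequences, with bars of 1 SE from the edgeR fit, for all libraries (blue) and without PD20 replicate 3 (orange). The forms of miR-182 of 18, 19, 20 and 22 nt move most between the fits, as the 20 nt form does from 2.14 to 1.06, and the 23 nt miR-96 lies lowest, at -2.26.

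Within pregnancy the 26 nt miR-182, which runs 2 bases beyond the mature form, had its lowest values on D16. It had 51.3, 102, 103, 82.4 and 222 normalized reads in PD12, 17.1, 25.3, 26.8, 40.2 and 47.1 in PD16, and 35.2 to 106 in PD20 (median 66.8). Every PD16 animal was below every PD12 animal. The log2FC of PD16 vs PD12 was -1.79 ± 0.39, with an adjusted p of 0.0567 in the edgeR test of both days against D12, and -1.79 with an adjusted p of 0.111 without PD20 replicate 3. For PD20 vs PD16 it was 1.14 ± 0.38 (adjusted p = 0.192, edgeR), and 0.98 without PD20 replicate 3.

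The share of the 26 nt form among miR-182 reads, which does not depend on the normalization, was 2.31% ± 1.204 in PD12, 0.462% ± 0.195 in PD16 and 1.07% ± 0.268 in PD20 (1.14% ± 0.236 without replicate 3). In cyclic animals it was 1.95% ± 1.18 in CD12, 0.814% ± 0.273 in CD16 (0.704% ± 0.137 without replicate 3) and 2.07% ± 1.199 in CD20. Both states had their lowest mean on D16. In level, the difference between the states in the change from D12 to D16 was -0.23 ± 0.66 on the log2 scale (adjusted p = 0.977, edgeR), which is smaller than its SE.

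Among the other members, the 18 nt miR-182 had a log2FC of 2.17 ± 0.63 for PD20 vs PD12 (adjusted p = 0.132, edgeR), at a level of 2.19 to 3.78 normalized reads in PD12 and 2.96 to 41.1 in PD20. PD20 replicate 3 gave the highest value, and the log2FC without it was 1.33. Since this form passed the authors' filter only in PD20, its excess there was fixed in part by that filter and is given as a description. The median log2FC of the 20 members was 0.44 for PD16 vs PD12, 0.13 for PD20 vs PD12 and -0.20 for PD20 vs PD16, against 0.05, -0.01 and -0.06 for all 873 sequences.

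In the estrous cycle all 6 forms of miR-183 had their highest mean on D16, again without a call. The lowest mean was on D20 for 5 of them and on D12 for the 23 nt form that starts 1 base later. The 24 nt miR-183 had 20.3, 10.8, 12.9 and 13.2 normalized reads in CD12, 58.4, 26.3, 5.19, 38.9 and 37.5 in CD16, and the 5 values given above in CD20. CD16 replicate 3 was the lowest of its group and the other 4 lay above every CD12 and CD20 animal. The log2FC was 1.32 ± 0.58 for CD16 vs CD12 (adjusted p = 0.122, edgeR) and -1.73 ± 0.55 for CD20 vs CD16 (adjusted p = 0.0969, edgeR). Without CD16 replicate 3 these were 1.59 and -2.001 (adjusted p = 0.0572 in the joint test, 0.120 for the single contrast of CD16 with CD12, and 0.0545 for CD20 vs CD16, edgeR), and without CD16 replicate 1, the highest animal, they were 0.94 and -1.35. The sum of miR-183 had a log2FC of -1.28 ± 0.58 for CD20 vs CD16 (adjusted p = 0.1995, edgeR), which was -1.59 without CD16 replicate 3 and -0.68 without CD16 replicate 1.

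The sum of miR-182 had its highest mean of the cycle on D12 with all libraries and on D16 without CD16 replicate 3. For CD20 vs CD16 its log2FC was -0.58 ± 0.42 (adjusted p = 0.426, edgeR), and -0.85 without that library, where the 20, 21 and 24 nt forms and the T24C form had an unadjusted p under 0.05. The 20 nt miR-182 was lower in every CD20 animal than in every CD12 animal (221, 231, 130 and 135 normalized reads in CD12), with a log2FC of -1.03 ± 0.40 (adjusted p = 0.208, edgeR). The 26 nt form had 29.04, 98.7, 218 and 165 normalized reads in CD12 and 79.9, 45.8, 22.2, 27.8 and 33.5 in CD16, and overlapped between them (log2FC -1.49 ± 0.53, adjusted p = 0.176, edgeR, and -1.34 without CD16 replicate 3). The 23 nt miR-96 had log2FC values of 1.85 ± 0.77 for CD20 vs CD12 (adjusted p = 0.143, edgeR) and 1.89 ± 0.71 for CD20 vs CD16 (adjusted p = 0.136, edgeR), and these rest on CD20 replicates 1, 2 and 3. Without CD20 replicate 1 they were 0.96 and 1.07, and without CD16 replicate 3 the second was 1.79.

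Whether the difference between pregnant and cyclic animals itself changed with the day was tested as an interaction over all 30 libraries, where 0 of 20 members reached an adjusted p under 0.05. Of all 873 sequences, 0.0% did for D16 against D12, 0.115% for D20 against D12 and 2.41% for D20 against D16. At an unadjusted p under 0.05 the edgeR test gave 0, 5 and 2 members and 8.13%, 16.4% and 19.1% of all sequences. Without PD20 replicate 3 and CD16 replicate 3 it gave 0, 3 and 3 members and 8.13%, 13.7% and 17.6%. The smallest adjusted p of a member was again that of the 20 nt miR-182, with 2.14 ± 0.70 for D20 against D16 (adjusted p = 0.0829, edgeR) and 2.35 ± 0.72 for D20 against D12 (adjusted p = 0.109, edgeR). Without PD20 replicate 3 these were 1.06 and 1.27. For D20 against D16 the likelihood ratio test of edgeR and DESeq2 each called this 1 member, with 5.38% and 5.96% of all sequences, and for D20 against D12 only DESeq2 did (2.75%, against 1.83% with the likelihood ratio test).

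The make-up of the reads of each miRNA was compared apart from its level. For 5 measures and 9 comparisons, 0 of 45 exact permutation tests had an adjusted p under 0.05, and 2 had an unadjusted p under 0.05. The smallest p that the group sizes allow was 0.00216 for 6 against 5 animals and 0.00794 otherwise, so that a single difference could not reach an adjusted p under 0.05 among 45 tests and the count of 0 does not show that the groups were alike. Both concerned the mean length of the miR-182 reads, which was between 22.71 and 23.34 nt in PD20 (median 23.25) and 23.47, 23.43, 23.44, 23.38 and 23.38 nt in CD20. All PD20 animals were below all CD20 animals, with or without replicate 3. The difference was -0.272 nt (exact two-sided permutation test p = 0.00649, adjusted p = 0.244), and -0.184 nt without replicate 3 (exact p = 0.00794, the smallest that 5 against 5 animals allow, adjusted p = 0.357). Against PD12, at 23.46 ± 0.15 nt (n = 5), the difference was -0.313 nt (exact permutation p = 0.0108, adjusted p = 0.244).

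The forms that differed most in share were those of 22 and 24 nt. The 22 nt form held 28.1% ± 6.55 of miR-182 reads in PD20 (SD, n = 6), with 22.2% as the lowest animal and 40.7%, in replicate 3, as the highest, and 19.1% ± 1.37 in CD20 (n = 5), with 21.1% as the highest. Means in the other groups were between 16.6% and 20.5%, but the highest animals had 23.4% in PD12 and 28.6% in PD16, within the range of PD20. Without replicate 3 the PD20 share was 25.6% ± 2.46, and its lowest animal still lay above all of CD20. The 24 nt form held 43.3% ± 2.83 in PD20 (44.2% ± 2.04 without replicate 3) and between 49.0% and 54.5% on average in the other groups. The highest PD20 animal had 46.2%, above the lowest of PD12 (44.5%), PD16 (45.5%) and CD20 (45.3%), so that these groups overlapped.

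**Figure D3:**
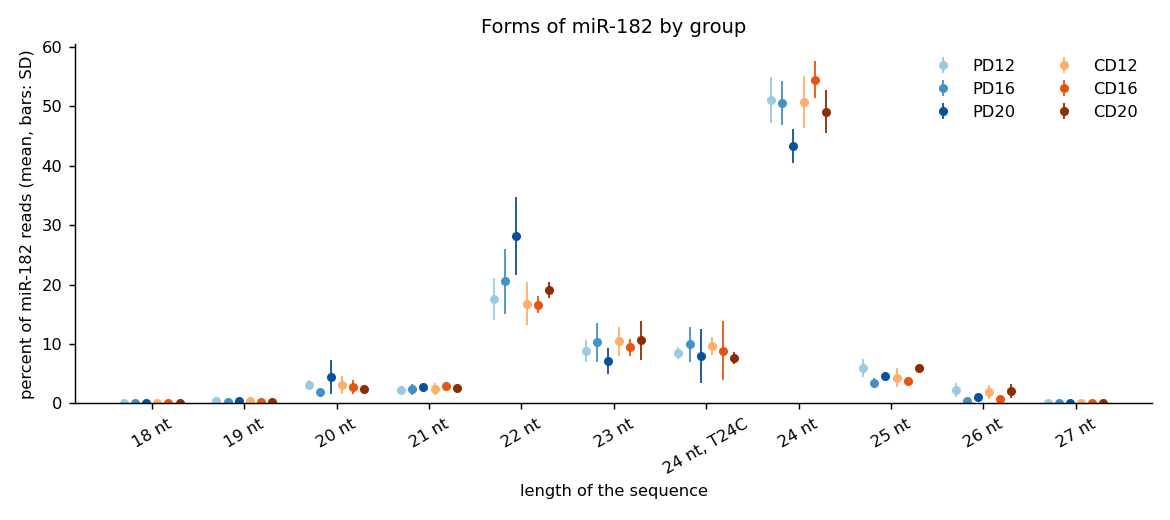
Share of miR-182 reads held by each form (percent) in the 6 groups, as the mean with a bar of 1 SD over the animals. PD20 has the largest share of the 22 nt form (28.1%) and the smallest of the 24 nt form (43.3%), and the 26 nt form is smallest in PD16 (0.462%).

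Some of the miR-183 reads began 1 base later in every library. Over the 30 libraries 31.9% ± 4.10 of its reads did so (SD, n = 30; lowest 22.6%, highest 41.1%), and the group means were between 30.6% in PD20 and 33.8% in CD12. None of the 9 comparisons of this share had a permutation p under 0.05, so that no difference in the proportion of the seeds TGGCACT and ATGGCAC was detected with these numbers of animals. The ratio of miR-183 to miR-182 reads was -4.11 ± 0.79 on the log2 scale, and that of miR-96 to miR-182 was -6.67 ± 1.64.

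Reads with a changed base near the 3′ end varied with the library more than with the group. The positions are those of the 24 nt miR-182, and the changed base stands in capitals in the sequences below, which are the 2 most read changed forms of miR-182.
miR-182 T24C: tttggcaatggtagaactcacacC
miR-182 A20C: tttggcaatggtagaactcCcact
The A20C form is not among the annotated sequences and had 4252 reads. For each 100 reads of the unchanged 24 nt form it had 1.72 to 2.17 reads in the 8 libraries whose titles carry the numbers 1 to 12 (median 2.06), 0.0544 to 0.238 in the 12 with the numbers 13 to 24 (median 0.148) and 2.82 to 4.07 in the 10 with the numbers 25 to 36 (median 3.55). These ranges did not overlap, and 117 pairs of other sequences with C in place of A at base 20 gave 0.930 to 1.58, 0.133 to 0.189 and 1.31 to 1.84 in the same libraries. Each range held animals of every group, except that 1 to 12 held none of CD12, and the labels do not say what the numbers mark. The study's methods describe barcodes 1 to 12 and 3 pools of libraries, and whether the ranges are these pools is not stated. With the range as a covariate in edgeR, the log2FC of the 20 nt miR-182 for PD20 vs CD20 was 1.83 (adjusted p = 0.0838), and that of the 26 nt form for PD16 vs PD12 was -1.77 (adjusted p = 0.0498), which is a call in a fit that called 0.344% of all sequences.

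**Figure D4:**
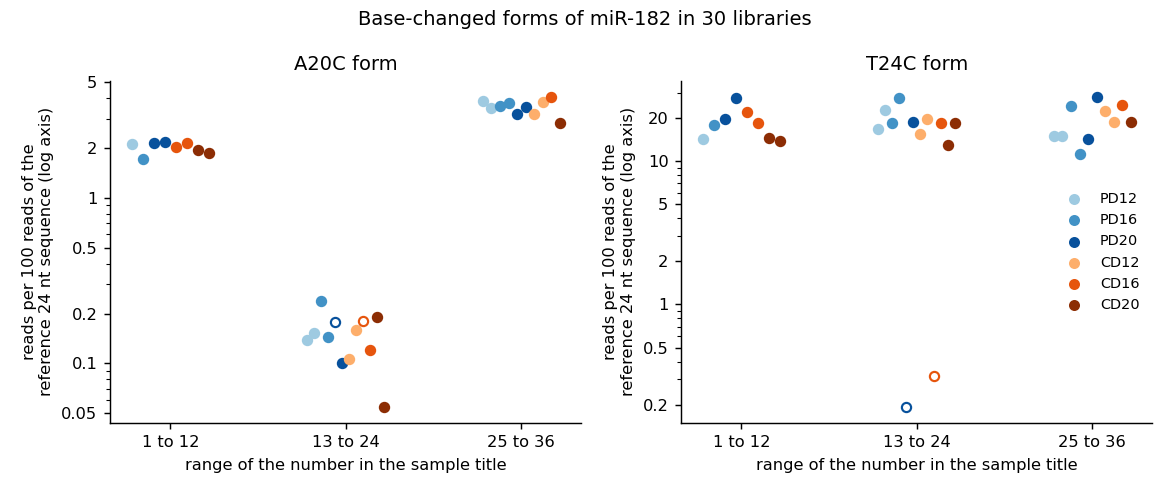
Reads of the A20C and T24C forms of miR-182 per 100 reads of the unchanged 24 nt form (log axis) for each library, by the range of the number in its title. A20C lies between 0.0544 and 0.238 for the numbers 13 to 24 and between 1.72 and 4.07 elsewhere, and 2 libraries have under 0.32 reads of T24C where the other 28 have at least 11.3.

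Since the 3 miRNAs come from neighbouring genes, their levels were compared across the 30 libraries as log2 of normalized reads plus 1. miR-182 and miR-183 were correlated, with Pearson's r of 0.65 (permutation p = 0.00013, adjusted over 3 pairs p = 0.00039) and Spearman's rho of 0.63 (permutation p = 0.0003, adjusted p = 0.0009). Without the libraries farthest in miR-182, CD16 replicate 3 and PD12 replicate 1, r was 0.59 (adjusted permutation p = 0.00279), and after subtraction of the group means it was 0.63 (adjusted permutation p = 0.0048). Without PD20 replicate 3 and CD16 replicate 3, r was 0.57 (adjusted permutation p = 0.00456). By range of title numbers r was 0.72 (n = 8), 0.69 (n = 12) and 0.47 (n = 10), and only the second passed an adjusted permutation p of 0.05 (0.121, 0.0392 and 0.254).

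miR-96 did not share this. With miR-182 it had r of -0.32 (permutation p = 0.0819, adjusted p = 0.123) and rho of -0.39 (permutation p = 0.036, adjusted p = 0.054), and with miR-183 r of -0.13 (permutation p = 0.50, adjusted p = 0.50) and rho of -0.10 (permutation p = 0.61). The first of these was -0.54 (adjusted permutation p = 0.00447) without the libraries farthest in miR-182 and -0.13 with all deposited reads as library size (adjusted permutation p = 0.745). Without PD20 replicate 3 and CD16 replicate 3 it was -0.46 (adjusted permutation p = 0.0206). It was -0.12, -0.28 and -0.83 by range of title numbers, of which only the last, for the numbers 25 to 36, had an adjusted permutation p under 0.05 (n = 10, p = 0.0203). The difference between the ranges was not tested. The points of a library share its depth and its normalization.

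**Figure D5:**
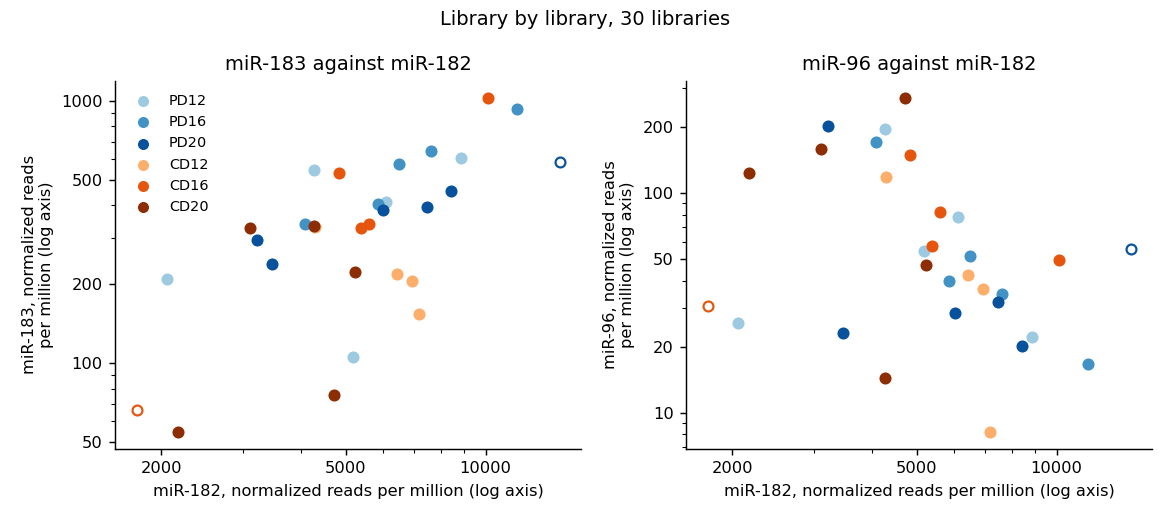
Summed normalized reads of miR-183 (left) and miR-96 (right) against those of miR-182, both axes logarithmic, with 1 point per library. miR-183 is higher where miR-182 is higher (r of 0.65), and the miR-96 points show no such relation (r of -0.32).

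Outside the cluster, 548 annotated sequences had a mean of at least 10 normalized reads. Of these, the 3 most like the 24 nt miR-182 over the 30 libraries were sequences of miR-375, with Pearson's r of 0.88, 0.84 and 0.83. The highest value for a cluster sequence was 0.85, for the 23 nt miR-182. For the 23 nt miR-183 they were the same 3 sequences (r of 0.84, 0.81 and 0.81), below its own 22 nt form (0.92), and for the 22 nt miR-96 they were 3 sequences of miR-99a (0.87, 0.86 and 0.86), above its own 23 nt form (0.76). The 22 nt miR-96 had its lowest value within the cluster with the 19 nt miR-182 (-0.55). The most read of these sequences of miR-375 and miR-99a are printed with their seeds in capitals.
miR-375: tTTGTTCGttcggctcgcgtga
miR-99a: aACCCGTAgatccgatcttgt
miR-375 is known from endocrine and epithelial cells. Its 4 sequences summed to 1089 normalized reads on D12, 1679 on D16 and 1029 on D20 of pregnancy and to 747, 1617 and 459 on these days of the cycle. Without replicate 3 the sum was 799 in PD20 and 1987 in CD16.

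Outside the cluster 2 sequences carry the seed of miR-96, both of miR-1271.
miR-1271 21 nt: cTTGGCACctagtaagcactc
miR-1271 22 nt: cTTGGCACctagtaagcactca
They had means of 47.7 and 32.6 normalized reads, about as many as the 22 nt miR-96. Neither was called in any comparison, and the lowest adjusted p was 0.101 (edgeR), at a log2FC of -1.49 ± 0.50 for CD20 vs CD16 in the 21 nt form.

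The levels of miRNAs known from single cell types were set beside the cluster, since its miRNAs are found in epithelia. All 8 epithelial names were matched, with 51 sequences, of which miR-200c was the most abundant. In pregnancy their sum was 13694 normalized reads on D12, 14892 on D16 and 12773 on D20, and in the cycle it was 10577, 14926 and 8836 on these days, with 12712 in PD20 and 16392 in CD16 without replicate 3. The group with the lowest sum, CD20, was also lowest in miR-182 and miR-183. The animals of PD20 had 9103 to 18114, and those of CD20 had 5490, 7938, 11848, 9858 and 9046, so that the groups overlapped. In PD20 vs CD20, 0 of the 51 were called higher and 3 were called lower, all of miR-205, an miRNA of stratified epithelia, where 1.49% of all sequences were called, and the median log2FC of the 51 was 0.48. Their part in the difference in miR-182 and miR-183 was not tested.

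The stromal and smooth muscle list, led by miR-143, summed to 639414 normalized reads in PD20 replicate 1 against 68171 to 213002 in the other libraries, and the striated muscle list, led by miR-1, to 40186 against 1111 to 16765. That library had 8410 normalized reads of miR-182, 453 of miR-183 and 20.2 of miR-96, within the range of the other PD20 animals except for miR-96, where it was the lowest. The endothelial sequences of miR-126 summed to 3913 in PD20 and 4604 in CD20, the leukocyte list, led by miR-142, to 110 and 122, and the erythrocyte list, led by miR-451, to 2190 and 1076. Some sequences outside the epithelial list were called, in comparisons whose shares of all sequences are given above. An 18 nt miR-143 was higher in PD20 than in PD16 (log2FC 1.68, adjusted p = 0.0314, edgeR). In the interaction of D20 with D16, miR-1 (3.33 and 3.23), miR-143 (3.91, 2.77 and 2.71) and miR-451 (2.97) were called. The 5 names of the embryonic list, among them miR-302 and miR-371, and the names miR-133a, miR-133b and miR-223 were not matched in the list of 873 names. The paper reports miR-302 among its differentially expressed miRNAs, higher on D20 of pregnancy, and its PCR assay detected it only in PD20. The missing match of the name therefore does not show that its sequence is absent from the list. A sequence of miR-302, an miRNA of early embryonic cells, was taken from the study's list of assays and counted by exact match in all deposited reads. It had 7, 4, 11, 117, 48 and 121 reads in PD20 replicates 1 to 6, 2 and 1 in CD20 replicates 1 and 5, and 0 in the other 22 libraries. Reads of this embryonic miRNA thus moved with PD20. The 2 highest animals differed in miR-96, with a sum of 203 normalized reads in PD20 replicate 4 and 28.6 in PD20 replicate 6. The part of any of these lists in the results was not tested.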

How the data were processed

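Small RNA of 30 endometria was sequenced by the authors, and the deposited values are raw counts of reads per distinct sequence, whole numbers, 1 library per animal. By the methods of the study, reads with a base of low quality, reads under 17 nt and reads with unknown bases were removed, adapters were trimmed, and identical reads were collapsed. The counts are not normalized, and their totals lie between 2029729 and 6402731 reads. PCR copies are not marked, so that the counts hold more than counting error. The aligner and the genome build behind the authors' annotation are not used here, because sequences were joined by exact match to the supplementary list of 873 names. That list was read for names and sequences only, and its fold changes and p-values were not used. Sequence positions on the genome are not given.

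Groups follow the sample labels. R 4.3.3 with edgeR 4.0.16 fitted a negative binomial model on counts of the 873 sequences with TMM scaling. Within pregnancy and within the cycle the quasi-likelihood F-test of edgeR compared D16 and D20 jointly with D12, as the study's design does, D20 vs D16 and P vs C were single contrasts, and interactions were fitted on all 30 libraries. p-values were adjusted over all features by Benjamini-Hochberg. The SE is the log2FC divided by the square root of its F. Reads of each miRNA were also summed in a table of 856 features, where all comparisons were single contrasts. Compositions were compared by exact permutation over animals, and correlations by 100000 permutations (numpy 2.4.6, scipy 1.17.1). The fit was tested on simulated data.

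The alternatives were the likelihood ratio test, DESeq2 1.42.0, RLE scaling, library size from all deposited reads, a minimum mean of 10 CPM, no list of names (all sequences with at least 10 reads), 1 fit of all libraries, the range of the title number as covariate, sequences that share their first 17 bases with a member, the replicate number as a block, and each library left out in turn. Named members are the mature form and the sum of each miRNA, members called in any comparison, the member of each miRNA with the smallest p-value in a comparison, its most and least abundant members, those that differ from the mature form at the 5′ end or by a base change and, for likeness, the 3 sequences of other miRNAs (mean of at least 10 CPM) with the highest Pearson's r. The members and the lists of cell type miRNAs were chosen with earlier results of these data known. The annotated mature form was taken for miR-182 and miR-183, and the most read form, 22 nt, for miR-96, whose mature name is not in the list. Replicate numbers do not pair animals. Libraries left out in pairs, the title ranges and the reads of miR-302 were examined after seeing the data.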

Additional observations from a re-analysis of the deposited data

Results flagged for a closer look

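Of 168 groups of 4 to 6 animals, 20 held 1 value far from the others of its group, and chance gives this for about 1 in 20 groups of independent, normally distributed values. The values here are skewed and share libraries and reads, so that the number is a description. In PD20, replicate 3 had 41.1 normalized reads of the 18 nt miR-182 (others 2.96 to 10.8), 1386 of the 20 nt form (others 101 to 234) and 5896 of the 22 nt form (others 770 to 2153). The T24C form had 321 in CD12 replicate 1 (others 668 to 737), and the 25 nt form had 489.9 in CD16 replicate 1 (others 66.1 to 187). The annotated 23 nt miR-183 had 134 in PD16 replicate 4 (others 49.7 to 71.2).

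miR-96 gave most of these values. Its 21 nt form had 21.4 normalized reads in PD12 replicate 4, 28.1 in PD16 replicate 1, 64.8 in PD20 replicate 4, 10.96 in CD12 replicate 1 and 22.8 in CD20 replicate 3. Replicate 4 of PD20 also had 96.3 of the 22 nt form (others 11.5 to 24.9), 41.9 of the 23 nt form and a sum of 203 (others 20.2 to 55.7), and its log2 ratio of miR-96 to miR-182 was -3.99 (others -8.70 to -7.23). PD16 replicate 1 had 65.2 of the 23 nt form and a sum of 171 (others 16.8 to 51.6), and CD16 replicate 4 had 37.1 of the 23 nt form (others 9.57 to 12.2). The mean length of reads was 23.3 nt for miR-182 in CD16 replicate 3 (others 23.42 to 23.47) and 22.6 nt for miR-96 in PD12 replicate 5 (others 22.18 to 22.25).

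Outside the annotated list, sequences that share their first 17 bases with a member were read as well. The most read was the A20C form of miR-182 with 4252 reads. For miR-183 it was a 22 nt form with T22C, tatggcactggtagaattcacC with the changed base in capitals, at 2657 reads, and for miR-96 a 22 nt form, tTTGGCACtagcacatttttga with the seed in capitals, at 2769 reads, which is close to the 3091 reads of the listed 22 nt form. The listed members held 94.7% of the reads with these first bases for miR-182, 72.0% for miR-183 and 58.0% for miR-96.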

How the results depend on the processing

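The statement that no member was called holds for edgeR's quasi-likelihood test with RLE scaling, with all deposited reads as library size, with all sequences of at least 10 reads, with the single contrast of each day pair and with the replicate block. It depends on the test used. The likelihood ratio test called 2 members for PD16 vs PD12 (26 and 18 nt miR-182), 1 for PD20 vs PD12 (18 nt), 1 each for CD16 vs CD12 and CD20 vs CD16 (24 nt miR-183), 4 for PD20 vs CD20 (19, 20 and 22 nt miR-182 and 23 nt miR-96) and 1 for the interaction of D20 with D16 (20 nt miR-182). DESeq2 called 1, 1, 1, 1 and 4 in the same comparisons of groups (26 nt and 18 nt miR-182, 24 nt miR-183 in both, then 18, 19 and 22 nt miR-182 and 23 nt miR-96), 1 for CD20 vs CD12 (23 nt miR-96) and 1 in the interactions of D20 with D12 and with D16. One fit of all libraries called 4 for PD20 vs CD20 (18, 20 and 22 nt miR-182 and 23 nt miR-96; 11.2% of all sequences) and 1 for CD20 vs CD16 (24 nt miR-183; 7.33%). The 18 nt miR-182 passed the authors' filter in PD20 alone, so that its calls in tests that include PD20 carry no weight here. The minimum of 10 CPM and the title range as covariate each called 1, the 26 nt miR-182 for PD16 vs PD12 (0.926% and 0.344% of all).

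With single animals left out, the number called was 0 to 1 for PD16 vs PD12 (1 without PD12 replicate 1, 0.229% of all), 0 to 1 for PD16 vs CD16 (without PD16 replicate 1, the 21 nt miR-96, which passed the authors' filter in CD16 alone, 4.12%), 0 to 5 for PD20 vs CD20 (5 without PD20 replicate 4, the 18 nt miR-182 among them, 13.3%, and 2 without CD20 replicate 4, 11.9%) and 0 to 1 for the interaction of D20 with D16 (23 nt miR-96 without PD20 replicate 4, 3.89%). In the other comparisons it was 0. The summed miR-96 had a log2FC of -1.95 to -0.43 for PD20 vs CD20 and was called without PD20 replicate 4 (with 120 of 856 features), the lower end, and the upper end was without CD20 replicate 1.

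Signs turned only in values that were not called. Library size from all deposited reads moved the median log2FC of all sequences for CD20 vs CD12 from 0.09 to 0.47 and for PD20 vs CD20 from -0.03 to -0.27. It gave 0.16 for the 23 nt miR-96 in CD16 vs CD12, 0.19 for the 22 nt miR-183 and 0.15 for the miR-183 sum in CD20 vs CD12, -0.095 for the miR-183 sum in PD20 vs PD12, -0.14 for the miR-182 sum in PD20 vs PD16, 0.088 for it in CD16 vs CD12 and 0.010 in PD12 vs CD12, -0.24 for the miR-183 sum in the interaction of D20 with D12, and r of 0.028 for miR-183 with miR-96. With all sequences that share 17 first bases, the miR-96 sum gave 0.42 for PD20 vs PD12, 0.78 for PD20 vs PD16 and 0.46 for the interaction of D20 with D16, and its ratio to miR-182 gave 0.62 for PD20 vs PD16. All sequences of at least 10 reads gave 0.041 for the 23 nt miR-96 in CD16 vs CD12, the title range gave 0.082 for the 27 nt miR-182 in CD20 vs CD12, and leaving out T24C gave 0.0017 nt for the miR-182 length in CD20 vs CD12. The correlations by title range were 0.72 and 0.47 for miR-182 with miR-183 (numbers 1 to 12 and 25 to 36), -0.83 for miR-182 with miR-96 (25 to 36) and 0.26 for miR-183 with miR-96 (13 to 24). Without the libraries farthest in miR-182 its r with miR-96 was -0.54, and without PD20 replicate 3 and CD16 replicate 3 it was -0.46.

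Same-numbered animals did not deviate together (r of -0.697 to 0.709, over 0.1 in at most 2 of 5 pairs), so that the numbers were not taken as pairs. The replicate block called 0 members, and gave 0.37 for the 23 nt miR-96 in CD16 vs CD12 and 0.042 for the miR-96 sum in PD16 vs PD12.

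Leaving out animals, these values of log2FC spanned 0. The 20 nt miR-182 went from -0.37 to 0.075 in PD16 vs PD12, the 23 nt miR-96 from -0.59 to 0.29 in CD16 vs CD12 and the 22 nt miR-183 from -0.49 to 0.17 in CD20 vs CD12. The miR-182 sum went from -0.33 to 0.30 in PD20 vs PD16 and from -0.47 to 0.16 in CD16 vs CD12. The miR-183 sum went from -0.17 to 0.32 in PD20 vs PD12, from -0.51 to 0.058 in CD20 vs CD12 and from -0.74 to 0.16 in the interaction of D16 with D12. The miR-96 sum went from -1.12 to 0.49 in PD16 vs PD12, from -1.30 to 0.43 in PD20 vs PD12, from -0.94 to 0.78 in PD20 vs PD16, from -0.20 to 1.47 in PD12 vs CD12, from -1.13 to 0.15 in PD16 vs CD16 and from -1.65 to 0.11 in the interaction of D20 with D16.

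Of the compositions, the miR-182 length (nt) went from -0.0984 to 0.0561 in CD16 vs CD12, -0.0909 to 0.0637 in CD20 vs CD12, -0.0234 to 0.0212 in CD20 vs CD16, -0.0493 to 0.105 in PD12 vs CD12 and -0.0835 to 0.00438 in PD16 vs CD16, and the miR-96 length from -0.0652 to 0.0638 in PD16 vs PD12 and -0.145 to 0.00872 in CD20 vs CD12. The later start of miR-183 (percentage points) went from -1.63 to 0.946 in PD16 vs CD16, -1.60 to 0.807 in PD20 vs PD16, -5.01 to 0.0867 in CD16 vs CD12, -3.97 to 1.14 in CD20 vs CD12, -3.66 to 1.44 in PD12 vs CD12 and -0.513 to 3.51 in CD20 vs CD16. The log2 ratio of miR-96 to miR-182 went from -0.71 to 0.59 in PD20 vs PD16, and that of miR-183 to miR-182 from -0.55 to 0.11 in PD20 vs PD12, -0.12 to 0.53 in PD16 vs PD12 and -0.080 to 0.61 in CD20 vs CD12. The cause of these changes was not tested. Depth limits the 18 and 27 nt miR-182 and the 21 nt miR-96 most, with 432, 406 and 660 reads over the 30 libraries.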
